A study of Homo sapiens with 6 samples.

Results

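The genes described here are 35 genes of the lysosome and of autophagy, taken by symbol from the deposited table of 16315 genes. They comprise 10 lysosomal hydrolases and activators, 11 proteins of the lysosomal membrane and its proton pump, 2 transcription factors and 12 autophagy genes. All 35 have a row in the table, and 34 passed the filter on low values, a mean of at least 1 CPM over all libraries (CPM is the count scaled to a common library size). Messenger RNA was sequenced in 6 libraries of F36P, a human erythroleukaemia line that needs cytokines to grow. In 3 libraries, sgHDAC7, the cells had been transduced with a guide RNA against HDAC7 and are labelled as HDAC7 knockout. In the other 3, sgNT, they carried a non-targeting guide and are labelled as wild type. Both guide plasmids confer puromycin resistance, and both groups were kept in 1 µg/ml puromycin for 4 days before RNA extraction. The labels do not say whether the transduced cells were a mixed population or a clone.

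Lysosomes break down proteins, lipids and sugars with hydrolases that work at acid pH. The acid is supplied by the vacuolar proton pump, a rotary ATPase with a cytosolic V1 sector that splits ATP and a membrane V0 sector that passes protons. Autophagy delivers cytoplasm and organelles to lysosomes: the ULK1 kinase and BECN1 complexes start a membrane, and lipid-linked proteins of the LC3 and GABARAP family and receptors such as SQSTM1 load it. The factors TFEB and TFE3 bind E-boxes in promoters of many of these genes, and red cell precursors use autophagy to clear their mitochondria as they mature.

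The E-box was looked for as the letters CACGTG (a palindrome, so both strands are covered) in RefSeq promoters on GRCh38.p14, 250 bases before to 50 bases after the start. Of the 26 members matched by symbol, 7 (26.9%) hold it, against 10.3% of 9941 promoters of tested genes and 7.43% of all 27305 promoters. All 7 also hold the longer form TCACGTG on either strand, which overlaps the first motif and is found in 5.96% of tested and 3.82% of all promoters. These 7 are the hydrolases CTSA, CTSD, GAA and NEU1 and the membrane and pump genes LAMP1, MCOLN1 and ATP6V0D1, thus 4 of 7 hydrolase and 3 of 5 membrane and pump promoters. None of the 12 autophagy promoters and neither of the 2 transcription factor promoters holds it. The stretches of the 4 genes whose motif lies before the start and outside annotated exons are shown 5′ to 3′ on the strand of the gene, with CACGTG in capitals, so that the arrangement of the motifs can be compared. LAMP1 (chr13:113297027-113297236, plus strand) carries it 5 times in the stretch, MCOLN1 (chr19:7522563-7522623, plus strand) and GAA (chr17:80101485-80101555, plus strand) 2 times each, and NEU1 (chr6:31862922-31862967, minus strand) 1 time.
LAMP1: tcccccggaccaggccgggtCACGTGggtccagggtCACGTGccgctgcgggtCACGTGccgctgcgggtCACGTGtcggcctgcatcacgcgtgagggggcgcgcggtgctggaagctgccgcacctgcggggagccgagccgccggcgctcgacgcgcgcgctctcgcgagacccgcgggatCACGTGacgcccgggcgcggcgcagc
MCOLN1: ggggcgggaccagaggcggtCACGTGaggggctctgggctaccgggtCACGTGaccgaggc
GAA: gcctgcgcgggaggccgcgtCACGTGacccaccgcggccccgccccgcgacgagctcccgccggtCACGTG
NEU1: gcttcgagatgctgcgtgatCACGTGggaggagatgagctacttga
A match is a description of these letters only. The 7 members with the motif had a median log2 fold change of 0.04 (range -0.43 to 0.25), and the 18 tested members with a promoter entry and no motif had -0.03 (range -0.47 to 0.58).

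Library totals ran from 11645003 to 12521195 counts in sgHDAC7 and from 10039693 to 11149179 counts in sgNT, at which 3 counts are worth 0.240 to 0.299 CPM (counting error only). HDAC7 messenger RNA, which checks the labels, was 194 to 246 CPM in sgHDAC7, against 449.9 to 462 CPM in sgNT (edgeR log2 fold change -1.02 ± 0.09 SE, adjusted p = 0.00139). Replicate 1 of both groups stood apart: the second principal component (32.1% of variance) separated it from replicates 2 and 3. The 10 erythroid markers looked for, GATA1, TAL1 and KLF1 among them, were all present, with a summed 15551 to 20682 CPM in sgHDAC7, against 11188 to 15895 CPM in sgNT. All 10 had a positive log2 fold change. None passed with group alone. With the replicate 1 term, the fit that called 6 members, 4 of 10 (ALAS2, HBG2, TFRC and EPOR) were higher, against 5.78% of all genes. In 1 of 10 (10%) the libraries of the groups did not overlap, against 25.1% of all genes. Of 11 monocyte and macrophage markers, cells rich in lysosomes, 3 were tested (CD68, itself a lysosomal protein, ITGAM and LYZ) and summed to 126 to 131 CPM in sgHDAC7, against 159 to 165 CPM in sgNT. ITGAM, an integrin of myeloid cells, had 20.8 to 29.3 CPM in sgHDAC7, against 38.9 to 61.4 CPM in sgNT and fell (log2 -0.94 ± 0.18, edgeR adjusted p = 0.0305), a call that leaving out any 1 library of replicates 2 and 3 ended (0.0609 to 0.167). VSIG4 had 8 counts over the sgHDAC7 libraries and 22 over the sgNT libraries, and the other 7 markers are not among the deposited genes. Of 9 granulocyte, 6 megakaryocyte, 6 mast cell and basophil and 6 lymphoid markers, 0, 4, 5 and 2 were tested. No marker of these lists passed with group alone. The granulocyte marker MPO had 4, 0 and 0 counts in sgHDAC7 replicates 1, 2 and 3, against 21, 6 and 4 in sgNT. AZU1, also a granulocyte marker, had 6, 5 and 5 counts in sgHDAC7, against 1, 7 and 17 in sgNT. The mast cell and basophil markers summed to 961 CPM in sgHDAC7 replicate 1, against 882 CPM in sgNT replicate 1, and to 540.0 and 587 CPM in sgHDAC7 replicates 2 and 3, against 598 and 586 CPM in sgNT. On replicates 2 and 3 alone, a fit that called 20.6% of all genes, 3 of 5 were called, CPA3 higher and TPSAB1 and TPSB2 lower in sgHDAC7. All 3 tested monocyte and macrophage markers were called lower in sgHDAC7 in that fit. The part of such cells, or of a shift in cell state, in the values below was not tested. In bulk RNA, fewer cells of a type and less RNA per cell cannot be told apart. Whether the biological replicates of the labels were separate cultures is not stated, and p-values measure only the spread between these libraries.

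No tested lysosome or autophagy gene passed the test with group alone. The share whose libraries did not overlap between the guides, 23.5%, was near the 25.1% of all genes. Together the 34 tested members summed to 3494, 3477 and 3507 CPM in sgHDAC7 replicates 1, 2 and 3, and to 3383, 3621 and 3679 CPM in sgNT. The 2 ranges overlap, with the lowest and the highest sum both in sgNT. With group as the single term, 0 of 34 members passed the edgeR quasi-likelihood test (Benjamini-Hochberg adjusted p under 0.05 over 13841 genes), where 2.86% of all genes did (1.16% higher and 1.7% lower in sgHDAC7). At an unadjusted p under 0.05 there were 7 members (20.6%), near the 19.2% of all genes. limma called 0 of 34 members, against 2.6% of all genes, and DESeq2 called 1 of 33 (CTSL), against 5.74%. RLE scaling, upper quartile scaling, no filter and a filter at a mean of 5 CPM called 0 members (31 tested in the last), against backgrounds of 2.77%, 2.77%, 2.38% and 3.75%. Of the members, 16 had a positive and 18 a negative log2 fold change, with a median of -0.0083 against -0.0016 for all tested genes. In 8 members (23.5%) the libraries of the groups did not overlap, 3 higher and 5 lower in sgHDAC7, against 25.1% of all genes, 13% higher and 12.2% lower. A fit with a term for replicate 1 of both groups called 6 members (17.6%), against a background of 12.6% (5.78% higher and 6.81% lower): CTSA and SQSTM1 higher, and CTSL, GUSB, LAMP2 and GABARAPL2 lower in sgHDAC7. A block for replicate number called 1 member (SQSTM1), against 7.21% of all genes. On replicates 2 and 3 alone (2 against 2 libraries) 6 members were called (17.6%), against a background of 20.6%. They were those of the replicate 1 term, with MAP1LC3B (lower in sgHDAC7) in place of GUSB. Without sgNT replicate 1, 5 members were called (background 11.5%), and without any other single library 0, against 1.65%, 0.195% and 0.224% of all genes without sgHDAC7 replicate 1, 2 and 3, and 0.34% and 0.361% without sgNT replicates 2 and 3.

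**Figure D1:**
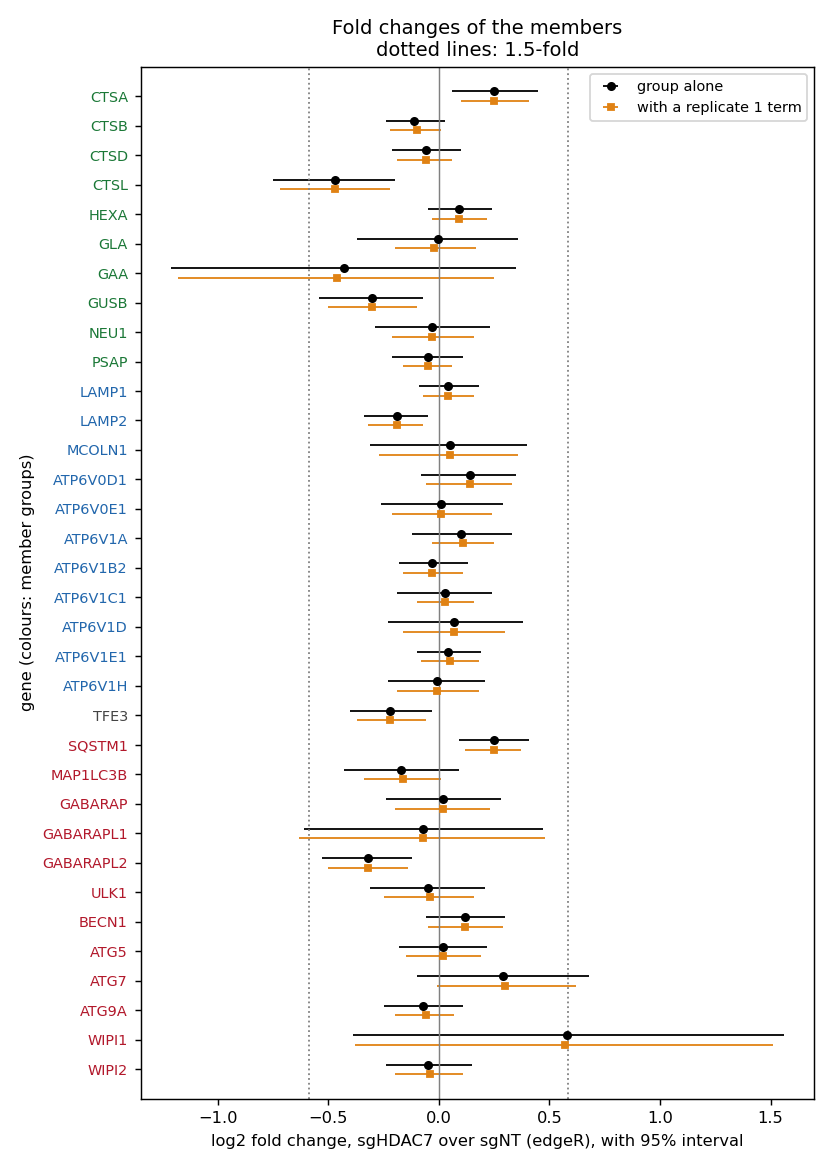
edgeR log2 fold changes of the 34 tested members (sgHDAC7 over sgNT) with 95% intervals, from the fit with group alone (black circles) and with a replicate 1 term (orange squares), gene names green for hydrolases, blue for membrane and pump, grey for the factor and red for autophagy. Most intervals lie between the dotted lines at 1.5-fold; in the fit with group alone those of CTSL, GAA, GABARAPL1, ATG7 and WIPI1 cross one.

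A missed threshold does not show that a level did not differ, so the intervals of the differences are given. The 95% interval (from the edgeR standard error, not adjusted for the number of genes) lay wholly within 1.5-fold in either direction for 29 of 34 members (85.3%), against 62.7% of all tested genes. It reached past 1.5-fold for 5, namely CTSL, GAA, GABARAPL1, ATG7 and WIPI1. All 11 membrane and pump genes were among the 29. In the 10 other pathway lists described below, the interval lay within 1.5-fold for 133 of 167 tested genes (79.6%). The median half-width of the interval was 0.21 for the members, 0.24 for those lists and 0.28 for all tested genes (log2 scale). The part of count level in these shares was not tested.

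**Figure D2:**
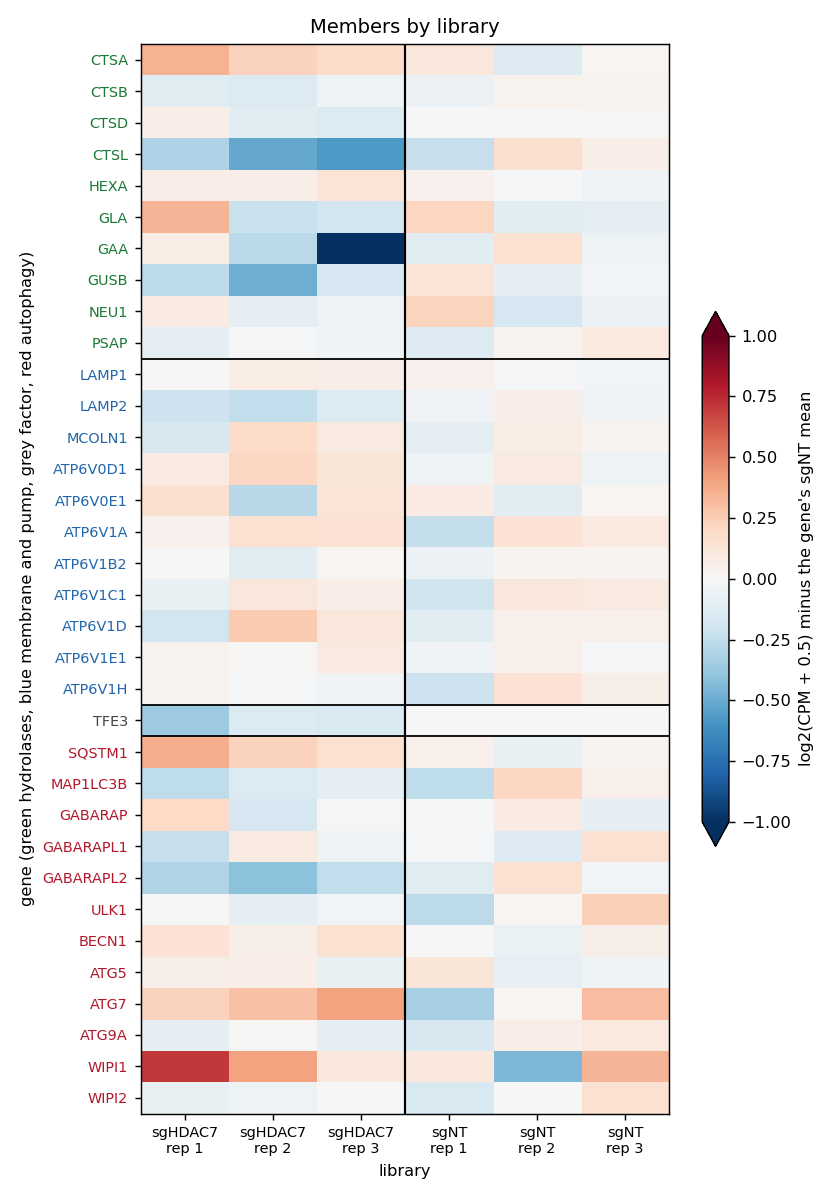
Each row is a tested member and each column a library, with colour giving log2(CPM + 0.5) minus the mean of the gene in sgNT (scale clipped at 1 in either direction). CTSL, GUSB, LAMP2, TFE3 and GABARAPL2 are lower, and CTSA, HEXA and SQSTM1 higher, in the 3 sgHDAC7 columns than in the 3 sgNT columns, and most other rows are pale or differ by replicate.

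Per kilobase of exon, the members differed widely, with the same 3 genes highest and the same 3 lowest in both groups. PSAP, the precursor of the saposins that help hydrolases reach their lipid substrates, was the highest of the 34, with 359 ± 9.08 CPM per kb in sgHDAC7 and 372 ± 29.6 CPM per kb in sgNT (SD, n = 3 each, as for all values that follow). CTSD, the aspartic protease cathepsin D, followed with 124 ± 9.88 CPM per kb in sgHDAC7 and 129 ± 0.687 CPM per kb in sgNT. LAMP1, a main glycoprotein of the lysosomal membrane, came next with 77.4 ± 2.38 CPM per kb in sgHDAC7 and 75.1 ± 1.95 CPM per kb in sgNT. At the low end stood GABARAPL1 (1.02 ± 0.133 in sgHDAC7 and 1.08 ± 0.124 in sgNT), GAA (0.745 ± 0.344 in sgHDAC7 and 1.00 ± 0.112 in sgNT) and the phosphoinositide-binding WIPI1 (0.654 ± 0.191 in sgHDAC7 and 0.437 ± 0.185 CPM per kb in sgNT). In sgHDAC7 the spreads of GAA and WIPI1 overlapped, and in both groups so did those of GABARAPL1 and GAA. WIPI1 lies over ARSG on the opposite strand, with up to 539 shared exon bases, and the use of strand in counting is not given in the sources used here.

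**Figure D3:**
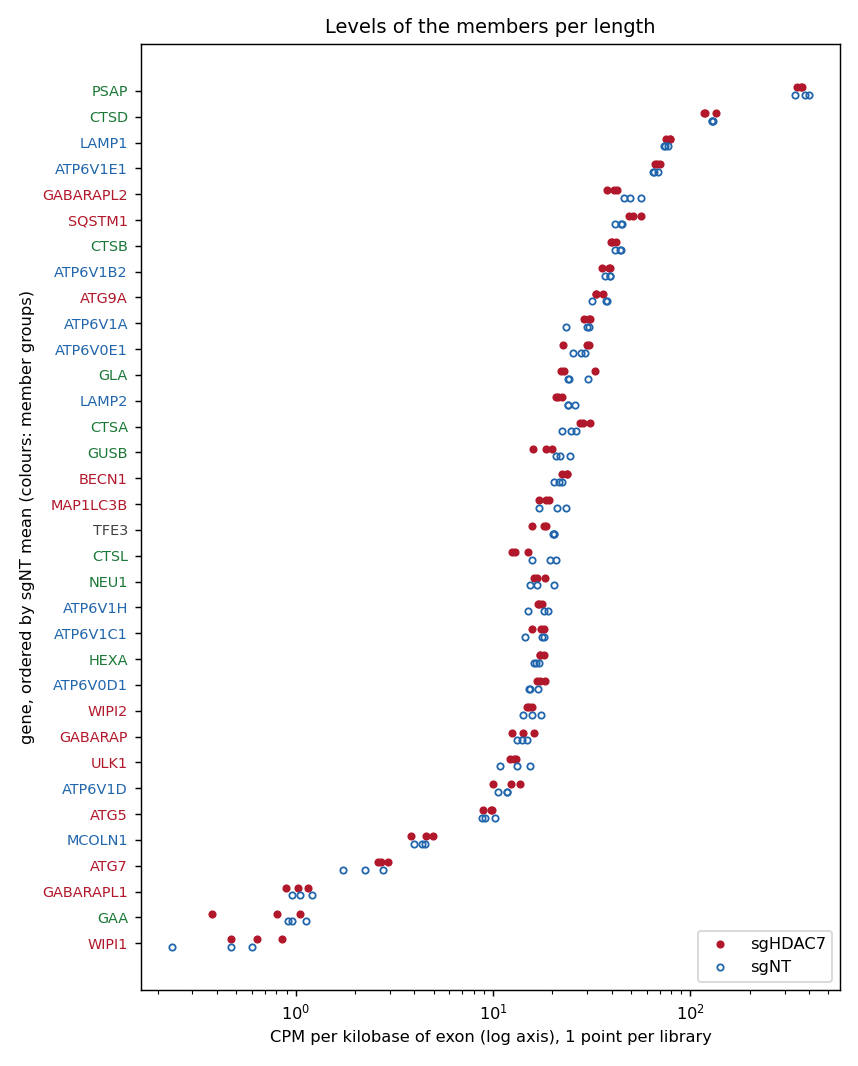
Level of each tested member in CPM per kilobase of exon on a log axis, with 1 filled red point per sgHDAC7 library and 1 open blue point per sgNT library, ordered by the sgNT mean and with gene names coloured by member group. PSAP is highest near 359 CPM per kb in sgHDAC7 and 372 in sgNT, and WIPI1 lowest at 0.654 in sgHDAC7 and 0.437 in sgNT.

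Among the 10 hydrolases and activators, CTSL, CTSA and GUSB stood out, and none passed with group alone. CTSL (chr9:87725519-87731393, plus strand, GRCh38), the cysteine protease cathepsin L, had 35.5, 30.7 and 29.4 CPM in sgHDAC7 replicates 1, 2 and 3, and 37.4, 49.3 and 46.1 CPM in sgNT. All 3 sgHDAC7 libraries lay below all 3 sgNT libraries, by a small margin in replicate 1. With -0.47 ± 0.12 it had the most negative log2 fold change of the 34 (edgeR adjusted p = 0.0745). It passed with the replicate 1 term (edgeR adjusted p = 0.0179) and in DESeq2 (adjusted p = 0.0234). It also passed on replicates 2 and 3 alone (edgeR adjusted p = 8.1e-06) and without sgNT replicate 1. The replicate 1 libraries differed by a log2 ratio of -0.07, and replicates 2 and 3 by -0.66.

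CTSA (chr20:45890144-45898820, plus strand), the carboxypeptidase that protects neuraminidase and beta-galactosidase, had 72.6, 66.9 and 64.8 CPM in sgHDAC7, against 61.7, 52.0 and 57.9 CPM in sgNT. The groups did not overlap (log2 0.25 ± 0.09, edgeR adjusted p = 0.153; the replicate 1 term gave 0.0349). Replicate 1 showed a log2 ratio of 0.23, and replicates 2 and 3 one of 0.26. PLTP, on the opposite strand, shares 200 exon bases with CTSA and had 142 ± 7.48 CPM in sgHDAC7, against 116 ± 8.99 CPM in sgNT (log2 0.29 ± 0.08, edgeR adjusted p = 0.0811). Without strand, reads from the shared stretch cannot be told apart.

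GUSB (chr7:65960684-65982314, minus strand), beta-glucuronidase, had 42.9, 36.6 and 45.6 CPM in sgHDAC7, against 56.2, 47.9 and 50.5 CPM in sgNT, again without overlap. Its log2 fold change was -0.30 ± 0.10 (edgeR adjusted p = 0.152), and it passed in the fit with the replicate 1 term alone of all settings, at an adjusted p of 0.0496. HEXA, the alpha subunit of beta-hexosaminidase, was the fourth hydrolase without overlap, with 105 to 110.2 CPM in sgHDAC7, against 98.0 to 103 CPM in sgNT (log2 0.09 ± 0.06, edgeR adjusted p = 0.454). CTSB, the cysteine protease cathepsin B, averaged 168 ± 5.35 CPM in sgHDAC7, against 181 ± 6.55 CPM in sgNT (95% interval of the log2 fold change -0.24 to 0.03). PSAP averaged 1033 ± 26.2 CPM in sgHDAC7, against 1071 ± 85.4 CPM in sgNT (interval -0.21 to 0.11). CTSD averaged 263 ± 21.0 CPM in sgHDAC7, against 274 ± 1.46 CPM in sgNT (interval -0.21 to 0.10). GAA, the acid alpha-glucosidase that degrades glycogen, was low, with 3.87, 2.94 and 1.38 CPM in sgHDAC7, against 3.36, 4.13 and 3.52 CPM in sgNT, and its interval ran from -1.21 to 0.35. By sign, 2 hydrolases were positive and 8 negative, with a median of -0.06.

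GLA and NEU1 were highest in replicate 1 of both groups. GLA (chrX:101397803-101408012, minus strand), alpha-galactosidase A, had 47.5, 32.0 and 32.9 CPM in sgHDAC7, against 43.5, 34.6 and 35 CPM in sgNT. The replicate 1 library was the highest of each group, and the mean log2 level of replicate 1 over both groups lay 0.43 above that of replicates 2 and 3. NEU1, the lysosomal sialidase, had 37.5, 33.0 and 34.2 CPM in sgHDAC7, against 41.5, 31.5 and 34.0 CPM in sgNT, a replicate 1 difference of 0.25. The guide differences of these 2 genes were -0.0055 ± 0.16 and -0.03 ± 0.12 on the log2 scale (edgeR adjusted p = 0.99 and 0.916).

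On the lysosomal membrane, LAMP2 was lower in sgHDAC7 in every library, and LAMP1 overlapped. LAMP2 (chrX:120427827-120469365, minus strand), which also serves as the receptor of chaperone-mediated autophagy, had 118, 115 and 124 CPM in sgHDAC7, against 133, 143 and 133 CPM in sgNT. Every sgHDAC7 library lay below every sgNT library (log2 -0.19 ± 0.07, edgeR adjusted p = 0.143, 0.0488 with the replicate 1 term and 0.0173 on replicates 2 and 3). LAMP1 (chr13:113297241-113323672, plus strand) had 202, 213 and 212 CPM in sgHDAC7, against 209, 200.3 and 199 CPM in sgNT. Its groups overlapped, with an interval of -0.09 to 0.18. MCOLN1, the calcium channel mucolipin 1 whose opening leads to activation of TFEB, averaged 9.27 ± 1.18 CPM in sgHDAC7, against 8.95 ± 0.586 CPM in sgNT (interval -0.31 to 0.40). The difference between LAMP1 and LAMP2 in their response was not tested.

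The 8 measured subunits of the proton pump differed little between the guides. Their log2 fold changes lay between -0.03 (ATP6V1B2) and 0.14 (ATP6V0D1), and none passed in any setting. ATP6V1A, the catalytic subunit, had 132, 142 and 141 CPM in sgHDAC7, against 108, 141 and 137 CPM in sgNT, with sgNT replicate 1 the single low library. ATP6V1B2, the partner subunit of the catalytic hexamer, averaged 108 ± 5.71 CPM in sgHDAC7, against 110.4 ± 3.91 CPM in sgNT (interval -0.18 to 0.13). ATP6V1E1, of the peripheral stalks, averaged 95.3 ± 2.90 CPM in sgHDAC7, against 92.4 ± 2.97 CPM in sgNT, with an interval of -0.10 to 0.19. ATP6V1C1 and ATP6V1H, which regulate the joining of V1 to V0, averaged 96.6 ± 6.44 and 50.3 ± 1.18 CPM in sgHDAC7, and 94.8 ± 11.1 and 50.7 ± 6.26 CPM in sgNT.

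Per kilobase in sgNT, the pump subunits were ordered ATP6V1E1 (65.9 ± 2.12), ATP6V1B2 (38.4 ± 1.36), ATP6V1A (28 ± 3.96), ATP6V0E1 (27.5 ± 1.88), ATP6V1H (17.4 ± 2.14), ATP6V1C1 (16.8 ± 1.96), ATP6V0D1 (15.9 ± 0.913) and ATP6V1D (11.4 ± 0.716 CPM per kb). ATP6V1A and ATP6V0E1 did not differ beyond their spread, nor did ATP6V1H, ATP6V1C1 and ATP6V0D1 among themselves. In sgHDAC7 the top 2 were again ATP6V1E1 (68.0 ± 2.07) and ATP6V1B2 (37.7 ± 1.99), and ATP6V1D was again lowest (12.0 ± 1.85 CPM per kb). ATP6V1D shares 253 exon bases with EIF2S1 on the opposite strand. Exon lengths are those of all coding transcripts in GENCODE, so the order depends on which transcripts the cells use.

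Both transcription factors were lower in every sgHDAC7 library than in every sgNT library, and neither passed a test. Of all tested genes, 12.2% were likewise lower in sgHDAC7 without overlap. TFE3 (chrX:49028726-49043486, minus strand) had 53.9, 63.1 and 62.2 CPM in sgHDAC7, against 69.1, 69.7 and 69.2 CPM in sgNT. The sgNT values lay close together, and the lowest of all was sgHDAC7 replicate 1. The log2 fold change was -0.22 ± 0.08 (edgeR adjusted p = 0.189; the replicate 1 term gave 0.0642). TFEB was the single member under the filter, with 5, 1 and 7 counts in sgHDAC7 and 11, 11 and 13 counts in sgNT. That is 0.349 ± 0.241 CPM in sgHDAC7, against 1.11 ± 0.130 CPM in sgNT. In a fit of all 16315 genes without the filter its log2 fold change was -1.60 ± 0.57 (edgeR adjusted p = 0.179). At 1 to 13 counts per library, the depth allows no firm size for that difference. The related factors MITF and TFEC summed to 62.0 to 74.2 CPM in sgHDAC7, against 70.7 to 88.9 CPM in sgNT, and neither passed with group alone. TFEC had 20.2, 11.1 and 11.7 CPM in sgHDAC7, against 39.7, 14.3 and 15.1 CPM in sgNT, and was called lower with the replicate 1 term (edgeR adjusted p = 0.0133), but not on replicates 2 and 3 alone (0.0903).

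The autophagy genes split evenly, with 6 positive and 6 negative log2 fold changes and a median of -0.01. SQSTM1 (chr5:179806398-179838078, plus strand), the receptor p62 that ties ubiquitin-marked cargo to LC3, had 195, 178 and 169 CPM in sgHDAC7, against 157, 144 and 155 CPM in sgNT. All sgHDAC7 libraries lay above all sgNT libraries, with sgHDAC7 replicate 1 the highest. The log2 fold change was 0.25 ± 0.07 (edgeR adjusted p = 0.102; the replicate 1 term gave 0.015). It was also called in the fit on replicates 2 and 3 and without sgNT replicate 1, with a log2 ratio of 0.31 in replicate 1, against 0.22 for the others. MRNIP, on the opposite strand, shares up to 803 exon bases with SQSTM1 and was low, at 3.13 ± 0.861 CPM in sgHDAC7, against 2.87 ± 0.893 CPM in sgNT.

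Of the 4 LC3 and GABARAP family genes, GABARAPL2 and MAP1LC3B were the higher per length. GABARAPL2 (chr16:75566351-75577881, plus strand), also known as GATE-16, had 55.7, 51.8 and 58.0 CPM in sgHDAC7, against 63.1, 76.4 and 67.6 CPM in sgNT. The groups did not overlap (log2 -0.32 ± 0.09, edgeR adjusted p = 0.092; the replicate 1 term gave 0.0238). Replicate 1 showed a log2 ratio of -0.18, and replicates 2 and 3 one of -0.39. MAP1LC3B (chr16:87383995-87404779, plus strand), the usual marker of autophagosomes, had 51.6, 55.9 and 57.9 CPM in sgHDAC7, against 51.4, 70.9 and 63.8 CPM in sgNT. The groups overlapped through sgNT replicate 1 (log2 -0.17 ± 0.12, edgeR adjusted p = 0.461), and it passed on replicates 2 and 3 alone (0.0271) and without sgNT replicate 1. Its near copy MAP1LC3B2 is 97.3% identical over 601 bases, so reads may have been split between them. MAP1LC3B2 averaged 16.9 ± 1.86 CPM in sgHDAC7, against 16.7 ± 2.82 CPM in sgNT. GABARAP averaged 32.3 ± 4.17 CPM in sgHDAC7, against 31.8 ± 1.94 CPM in sgNT, with an interval of -0.24 to 0.28. Per kilobase in sgNT the family was ordered GABARAPL2 (50.6 ± 4.98), MAP1LC3B (20.6 ± 3.28), GABARAP (14.0 ± 0.855) and GABARAPL1 (1.08 ± 0.124). In sgHDAC7 the order was the same, at 40.5 ± 2.31, 18.3 ± 1.06, 14.2 ± 1.84 and 1.02 ± 0.133 CPM per kb.

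The genes that start and extend the autophagosome showed no call in any setting. ULK1, the kinase inhibited by mTORC1, had 69.1, 64.8 and 67.9 CPM in sgHDAC7, against 57.5, 70.2 and 81.7 CPM in sgNT, so that sgNT held both the lowest and the highest library. BECN1, of the lipid kinase complex, averaged 49.6 ± 1.71 CPM in sgHDAC7, against 45.7 ± 2.10 CPM in sgNT (interval -0.06 to 0.30). ATG5, which is joined to ATG12 in the conjugation machinery, averaged 45.3 ± 2.53 CPM in sgHDAC7, against 44.8 ± 3.56 CPM in sgNT, with an interval of -0.18 to 0.22. ATG7, the enzyme that activates these proteins for conjugation, had 12.9, 13.5 and 14.6 CPM in sgHDAC7, against 8.60, 11.1 and 13.7 CPM in sgNT. Its interval of -0.10 to 0.68 reached past 1.5-fold, and it shares up to 1596 exon bases with VGLL4 on the opposite strand. The lipid scramblase ATG9A averaged 144 ± 6.18 CPM in sgHDAC7, against 150.3 ± 14.3 CPM in sgNT, and WIPI2, which recruits the conjugation complex, 72.5 ± 2.05 CPM in sgHDAC7, against 74.9 ± 8.02 CPM in sgNT. BECN1 also shares exon bases with a gene on the opposite strand, CNTD1.

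The guide difference was not the same in replicate 1 as in replicates 2 and 3 for several members. Over the 34 members, replicate 1 had a median log2 ratio of 0.07 and replicates 2 and 3 had -0.05, against -0.0046 and 0.0037 for all tested genes. ATG7 stood at 0.56 and 0.17, ATP6V1A at 0.29 and 0.02, ULK1 at 0.26 and -0.19, and MAP1LC3B at 0.0063 and -0.24. CTSA, SQSTM1, LAMP2 (-0.17 and -0.20) and GUSB (-0.39 and -0.26) were closer. With 1 library per group in replicate 1, this difference was not tested. Genes of the response to the stress factor ATF4 moved with the same libraries: 7 of 10 fell with group alone, and their summed level was 522 to 541 CPM in sgHDAC7, against 632 CPM in sgNT replicate 1 and 1244 and 1266 CPM in sgNT replicates 2 and 3. The 3 with the smallest edgeR adjusted p were SLC7A11 (0.0139), CHAC1 (0.0249) and PSAT1 (0.0341). Of these calls, CHAC1 and PSAT1 held only without sgNT replicate 1 when single libraries were left out, and SLC7A11 also without sgHDAC7 replicate 1 (edgeR adjusted p = 0.0321). The part of the ATF4 response in the member values was not tested.

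**Figure D4:**
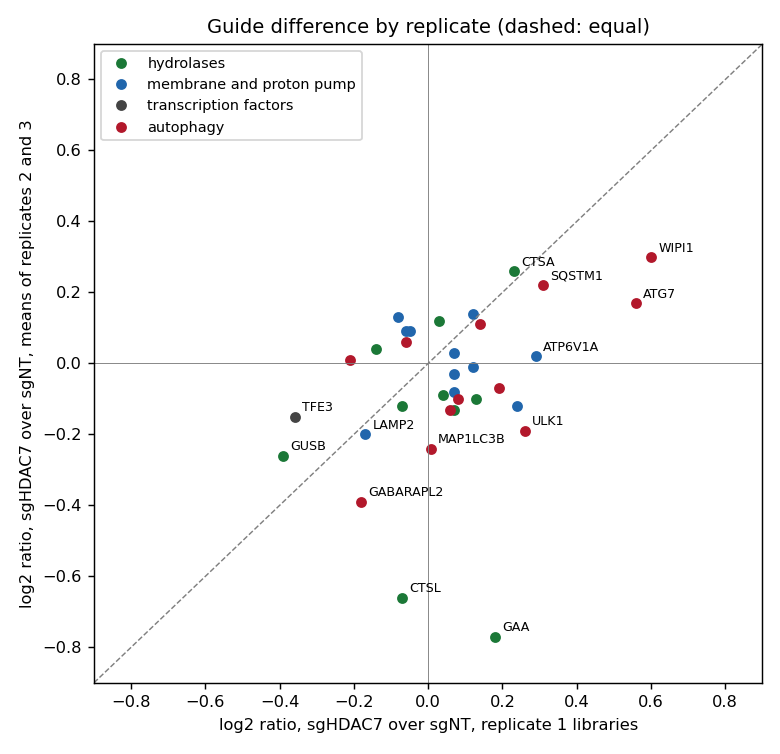
Log2 ratio of sgHDAC7 over sgNT for each tested member, between the replicate 1 libraries (horizontal axis) and between the means of replicates 2 and 3 (vertical axis), coloured by member group, with a dashed line where both are equal. CTSA, SQSTM1 and LAMP2 lie near the line, and CTSL (-0.07 and -0.66) and GAA (0.18 and -0.77) lie well below it.

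A small share of the other genes of the pathway changed. Of 180 further genes in 10 lists, 167 were tested, and 3 rose and 5 fell with group alone, 8 of 167 against the background of 2.86% of all genes. The list of mTORC1 and its lysosomal regulators held 4 calls among 31 genes. FNIP2 (chr4), a folliculin partner that helps control TFEB and TFE3 at the lysosome, had 76.4, 65.6 and 65.3 CPM in sgHDAC7, against 43.3, 47.2 and 39.7 CPM in sgNT and rose (log2 0.67 ± 0.10, edgeR adjusted p = 0.0127). All sgHDAC7 libraries lay above all sgNT libraries. SESN3, a sestrin that restrains mTORC1, had 36.5, 33.6 and 34.7 CPM in sgHDAC7, against 47.6, 46.3 and 44.8 CPM in sgNT and fell (log2 -0.40 ± 0.08, edgeR adjusted p = 0.0356), by a like amount in every replicate. DDIT4 and SESN2, 2 further inhibitors of mTORC1 and targets of ATF4, fell by 3.19 ± 0.60 and 2.43 ± 0.50 on the log2 scale (edgeR adjusted p = 0.0287 and 0.0384; SESN2 was named after its values were seen). Their log2 ratios were -0.86 and -0.45 in replicate 1, and -3.61 and -2.85 in replicates 2 and 3. With the replicate 1 term this list held 5 higher and 3 lower genes (25.8%, against 12.6% of all genes).

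In enzyme sorting, SORT1, the receptor sortilin that carries prosaposin and other cargo to lysosomes, was the 1 call of 9 genes with group alone. It had 76.5, 56.3 and 56.8 CPM in sgHDAC7, against 32.5, 39.4 and 41.0 CPM in sgNT and rose (log2 0.75 ± 0.14, edgeR adjusted p = 0.0281). Replicate 1 showed a log2 ratio of 1.22, and replicates 2 and 3 one of 0.49. With the replicate 1 term the sorting list held 3 higher and 1 lower gene (44.4%, against 12.6% of all genes). The groups did not overlap in 5 of its 9 genes (55.6%, against 25.1% of all genes), 4 higher and 1 lower in sgHDAC7. Among 24 other lysosomal membrane genes, CTNS, the cystine exporter cystinosin, had 20.7, 16.6 and 14.5 CPM in sgHDAC7, against 10.6, 10.2 and 10.4 CPM in sgNT and rose (log2 0.74 ± 0.16, edgeR adjusted p = 0.0417). LAPTM4B, a membrane protein of late endosomes and lysosomes, had 717, 709 and 717 CPM in sgHDAC7, against 933, 849 and 831 CPM in sgNT and fell (log2 -0.29 ± 0.06, edgeR adjusted p = 0.0488). Among 11 other autophagy receptors, BNIP3L, which marks mitochondria for removal in maturing red cells, had 146, 145 and 149 CPM in sgHDAC7, against 168, 206 and 211 CPM in sgNT and fell (log2 -0.41 ± 0.09, edgeR adjusted p = 0.0423).

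**Figure D5:**
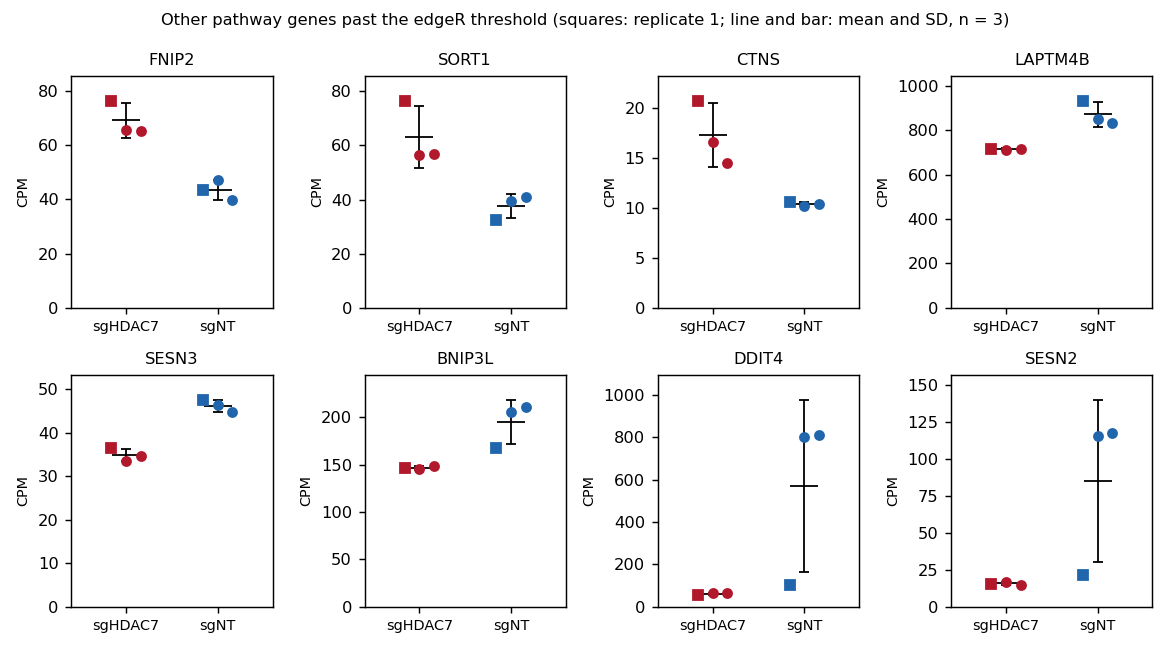
CPM per library of the 8 other pathway genes past the edgeR threshold, with sgHDAC7 in red left of sgNT in blue, squares for replicate 1, and mean and SD (n = 3) in black. FNIP2, SORT1 and CTNS are higher, and the other 5 lower, in all 3 sgHDAC7 libraries; for DDIT4 and SESN2 the sgNT replicate 1 square lies near the sgHDAC7 points.

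These 8 calls depended on single libraries and, for 3 genes, on the tool or scaling. In limma, LAPTM4B, DDIT4 and SESN2 missed the threshold (adjusted p = 0.0512, 0.0591 and 0.0749), and LAPTM4B also did so with upper quartile scaling (edgeR adjusted p = 0.0546). All 8 held without sgNT replicate 1. FNIP2 also held without sgHDAC7 replicate 1 or sgNT replicate 2 and was lost without sgHDAC7 replicate 2, sgHDAC7 replicate 3 or sgNT replicate 3 (edgeR adjusted p = 0.0771, 0.0684 and 0.0698). SORT1 also held without sgHDAC7 replicate 1 and was lost without any of the other 4 (up to 0.11). The other 6 were lost without any library other than sgNT replicate 1, with edgeR adjusted p from 0.0552 to 0.196. No call was made with group alone among 35 other hydrolases and activators, 15 other pump subunits and assembly factors, 17 other genes of autophagy initiation and membrane growth, 9 other genes of LC3 and GABARAP conjugation, 14 fusion genes or the 2 other factors. With the replicate 1 term these 6 lists held 1 higher and 3 lower, 1 higher, 1 lower, 0, 1 higher and 1 lower gene, and over all 10 lists there were 13 higher and 12 lower genes (15% of 167, against 12.6% of all genes).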

How the data were processed

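RNA was measured in 3 sgHDAC7 and 3 sgNT libraries of F36P cells; per the labels' protocols, poly-A RNA was selected with poly-T beads and primed with random hexamers. The table the authors deposited is named CPM, yet its 6 columns hold raw counts (100% whole numbers, unequal totals). Per the submitters' processing notes, the build is hg38 and edgeR 3.32.1 is listed; for the aligner, counter, annotation and strand nothing is given in the sources used here. NC columns were taken as sgNT, the only other group. All 16315 genes exceed 0.5 CPM in at least 2 libraries.

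Counts were tested with edgeR 4.0.16 (R 4.3.3), TMM scaling, quasi-likelihood test, group as single term, two-sided, on the 13841 genes averaging 1 CPM or more, adjusted by Benjamini-Hochberg at 0.05. CPM values are TMM-scaled, except those of TFEB, which are unscaled. Errors are SD of 3 libraries, or SE for log2 fold changes (from F); log2 ratios of libraries use log2(CPM + 0.5). Alternatives were limma 3.58.1, DESeq2 1.42.0, scaling, filter, replicate terms and leaving out libraries. The fits were tested on simulated data. Positions, exon lengths and overlaps come from GENCODE 29 on GRCh38; near copies (at least 95% identity over 200 bases) from BLAST+ 2.17.0. Members, lists, named genes and alternatives were chosen with earlier results of these data known. Full values are given for members past the threshold in either of the fits without and with a replicate 1 term, for TFEB and TFE3, and for up to 3 called genes per other list.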

Additional observations from a re-analysis of the deposited data

How the results depend on the processing

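Of the 34 tested members, 20 kept the sign of their log2 fold change in every alternative that gave them a value, 15 except for GAA and WIPI1, which the filter at a mean of 5 CPM left out; the 14 that turned in at least 1 had at most 0.10 on the log2 scale with group alone, and none of the 7 members called in any alternative was among them. With DESeq2, 718 genes and 1 member (CTSL) were called. The replicate numbers matched the libraries for replicate 1, but not for replicates 2 and 3. Deviations from the group means correlated at 0.303 between the replicate 1 libraries, against -0.216 to -0.179 between replicate 1 and the others. Same-numbered libraries of replicates 2 and 3 correlated at 0.107 and 0.0968, below the 0.159 and 0.155 with each other's number. Deviations from a mean of 3 libraries depend on one another, so these values cannot settle the pairing of replicates 2 and 3. The replicate block gave 998 genes and 1 member (SQSTM1). The replicate 1 term gave 1743 genes and 6 members, and replicates 2 and 3 alone 2847 and 6; the cause of the rise was not tested. Leaving out single libraries gave 27 to 1588 genes and 0 to 5 members, the lowest without sgHDAC7 replicate 2 and the highest without sgNT replicate 1. The 396 genes called with group alone were all among those called with the block, with the replicate 1 term, on replicates 2 and 3 and without sgNT replicate 1. RLE or upper quartile scaling, both filters and limma kept the count between 360 and 409 genes and 0 members. HDAC7 passed in every alternative. On replicates 2 and 3, signs turned for ATP6V0E1 (-0.02), ATP6V1C1 (-0.01), GABARAP (-0.08), GABARAPL1 (0.01) and NEU1 (0.04). When single libraries were left out, log2 fold changes ran from -0.03 to 0.08 for ATG5, -0.07 to 0.14 for ATP6V0E1, -0.0094 to 0.17 for ATP6V1A, -0.06 to 0.0091 for ATP6V1B2, -0.07 to 0.08 for ATP6V1C1, -0.04 to 0.18 for ATP6V1D, -0.11 to 0.06 for ATP6V1H, -0.09 to 0.10 for GABARAP, -0.17 to 0.02 for GABARAPL1, -0.22 to 0.11 for GLA, -0.04 to 0.14 for MCOLN1, -0.11 to 0.09 for NEU1, -0.17 to 0.07 for ULK1 and -0.12 to 0.04 for WIPI2. Depth limits TFEB, WIPI1, GAA and GABARAPL1 most.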
